A study of Mus musculus with 4 samples.

Results

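The MS4A genes encode small membrane proteins that cross the membrane 4 times, the fold of CD20, and are clustered on mouse chromosome 19. The genes described here are *Ms4a4a*, *Ms4a4c*, *Ms4a6b*, *Ms4a6c*, *Ms4a6d* and *Ms4a7*, chosen by their symbols. Of these 6 genes, 5 were present among the 23920 gene IDs measured, and *Ms4a4a* was not analysed here. All 5 reached 1 FPKM in at least 1 library, the minimum for the 10763 genes compared. FPKM is the number of sequenced fragments scaled to transcript length and library size, so levels of different genes can be set side by side.

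Bulk RNA sequencing was performed on bone marrow-derived macrophage-like cells (BMMs) of C57BL/6 male mice aged 8 weeks, according to the sample labels, with 1 library for each of 4 conditions after 24 h of culture, named here by genotype and added cytokine. The *Stat5* cKO cells carried floxed *Stat5a* and *Stat5b* that had been deleted through Mx1-Cre, and received RANKL and IL-3 on top of M-CSF (cKO RANKL+IL-3). *Stat5* fl/fl cells, in which the floxed genes stay intact, received the same (fl/fl RANKL+IL-3), RANKL on top of M-CSF (fl/fl RANKL), or M-CSF alone (fl/fl M-CSF). The cytokine M-CSF was thus present in every culture, and according to the methods both genotypes were littermates that had received poly I:C, which switches on the interferon-inducible Mx1 promoter. That promoter acts in many blood and other cells, so the deletion was not limited to osteoclast precursors, and the methods give a younger age for osteoclast cultures than the labels do. How many mice stand behind a library was not stated. No condition has a second library, so every ratio describes the 2 libraries compared, without a replicate check or test.

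In mice and humans, most MS4A proteins are made by blood cells. CD20 (*Ms4a1*) marks B cells, the beta chain of the high-affinity IgE receptor (*Ms4a2*) serves mast cells and basophils, and *Ms4a3* is known from granulocyte and monocyte progenitors. The genes of the *Ms4a4*, *Ms4a6* and *Ms4a7* groups are known mainly from monocytes and macrophages, the cells from which osteoclasts form, and in humans variants near them are associated with the level of soluble TREM2.

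Depth was estimated at 33.0 to 36.8 M fragments per library. *Stat5a* stood at 0.17 FPKM in the cKO library and between 9.89 and 11.96 FPKM in the 3 fl/fl libraries, and *Stat5b* stood at 0.19 FPKM against 7.80 to 10.8 FPKM, as the genotype labels state. All 12 macrophage markers listed were detected in every library, with a summed level of 8620 to 24152 FPKM. Of this, *Lyz2* alone made up 7176 to 19887 FPKM. The 6 T cell markers summed to no more than 0.99 FPKM and the 6 B cell markers to no more than 3.17 FPKM. Of the 8 dendritic cell markers, 4 reached 1 FPKM. The 8 summed to 129 FPKM in cKO, 593 FPKM in fl/fl RANKL+IL-3, 117 FPKM in fl/fl RANKL and 172 FPKM in fl/fl M-CSF. Most of this sum was *Cd74*, at 83.4 to 434 FPKM. The dendritic cell genes *Flt3* and *Zbtb46* stayed at 0.44 FPKM or less. The osteoclast markers summed to 518 FPKM in the cKO library, 141 FPKM in fl/fl RANKL+IL-3, 1277 FPKM in fl/fl RANKL and 45.9 FPKM in fl/fl M-CSF. Over all genes the median log2(FPKM + 1) ratio was 0.14 for fl/fl RANKL over fl/fl M-CSF, -0.15 for fl/fl RANKL+IL-3 over fl/fl RANKL, and 0.13 for cKO over fl/fl when both had IL-3, and the ratios here include these shifts.

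*Ms4a6d* (gene ID 68774) had the highest level of the 5 genes in every library. It is known from mouse macrophages, and lies at chr19:11586606-11604804 (GRCm38, the assembly also called mm10). It stood at 55.9 FPKM in cKO RANKL+IL-3, 113 FPKM in fl/fl RANKL+IL-3, 27.4 FPKM in fl/fl RANKL and 142 FPKM in fl/fl M-CSF. The fl/fl libraries with IL-3 and with M-CSF alone were thus the high ones, and the RANKL library was the low one.

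*Ms4a6c* (gene ID 73656), at chr19:11469353-11487182, was at 25.6 FPKM in cKO RANKL+IL-3, 27.1 FPKM in fl/fl RANKL+IL-3, 19.3 FPKM in fl/fl RANKL and 67.2 FPKM in fl/fl M-CSF. Its level was high with M-CSF alone, and the 3 libraries with RANKL lay close together. *Ms4a6b* (gene ID 69774), at chr19:11518559-11530403, was at 11.2 FPKM in cKO RANKL+IL-3, 8.87 FPKM in fl/fl RANKL+IL-3, 5.29 FPKM in fl/fl RANKL and 25.9 FPKM in fl/fl M-CSF. It was again highest with M-CSF alone, and lowest in fl/fl RANKL.

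*Ms4a7* (gene ID 109225), at chr19:11321039-11336146, is a gene by which macrophages of several mouse tissues are recognised. It stood at 25.2 FPKM in cKO RANKL+IL-3, 10.1 FPKM in fl/fl RANKL+IL-3, 12.3 FPKM in fl/fl RANKL and 71.3 FPKM in fl/fl M-CSF. Unlike *Ms4a6d*, it was low in fl/fl cells both with and without IL-3 once RANKL was present. *Ms4a4c* (gene ID 64380), at chr19:11404717-11427246, was near the minimum everywhere, at 1.92 FPKM in cKO RANKL+IL-3, 1.14 FPKM in fl/fl RANKL+IL-3, 1.14 FPKM in fl/fl RANKL and 1.80 FPKM in fl/fl M-CSF. The estimated 68.1 to 119.6 fragments per library behind *Ms4a4c* compare with 309.6 to 1443 for *Ms4a6b*, the next lowest gene.

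**Figure D1:**
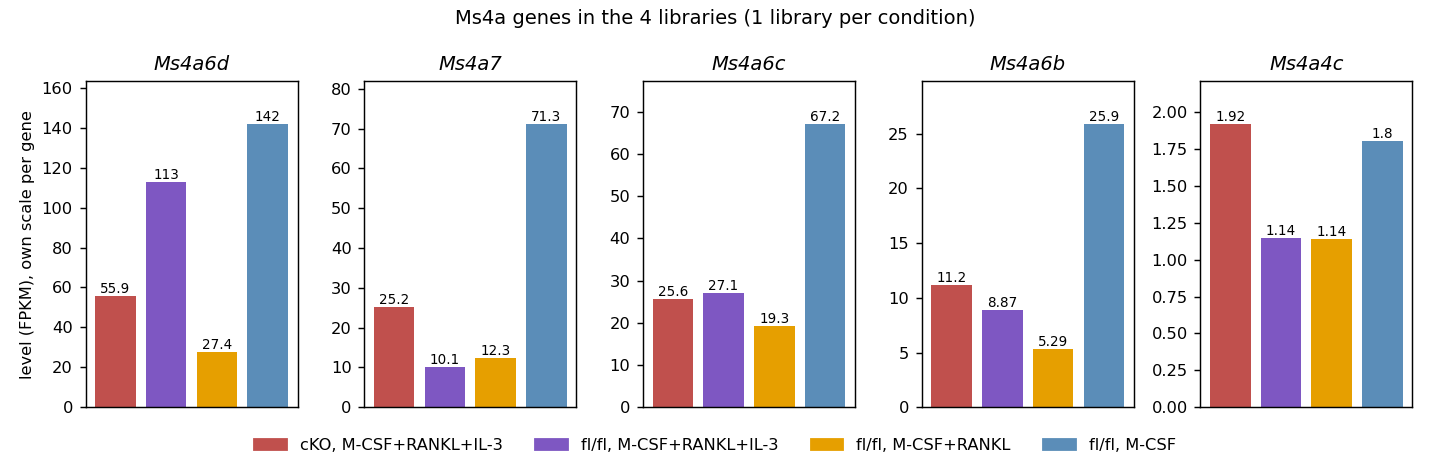
Levels in FPKM (vertical, own scale per gene, from 0) of 5 *Ms4a* genes, with a bar for each library. Error bars are absent because conditions have no replicates. *Ms4a6d* stands at 113 FPKM in fl/fl RANKL+IL-3 against 27.4 FPKM in fl/fl RANKL, whereas *Ms4a7* stands at 10.1 against 12.3 FPKM.

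RANKL, the cytokine that directs BMMs to osteoclasts, was compared with M-CSF alone in fl/fl cells. Of the 5 genes, 4 were at least 2-fold lower with RANKL on the log2(FPKM + 1) scale and 0 were higher, where 6.88% of all genes compared were 2-fold lower, 5.44% higher and 12.3% were 2-fold apart in either direction. The median log2 ratio of the 5 genes was -2.10. *Ms4a7* was 5.78-fold lower in FPKM (log2(FPKM + 1) ratio -2.44 ± 0.12), where the error is an approximate 95% interval from counting fragments and leaves out variation between cultures and mice. *Ms4a6d* was 5.18-fold lower (-2.33 ± 0.08), *Ms4a6b* 4.90-fold lower (-2.10 ± 0.15) and *Ms4a6c* 3.48-fold lower (-1.75 ± 0.09). *Ms4a6c* and *Ms4a6d* differed in their log2 FPKM ratios by 0.57 (*Ms4a6d* minus *Ms4a6c*, -0.57, counting interval -0.70 to -0.45), while *Ms4a6d* and *Ms4a6b* differed by less than the counting error (-0.08, interval -0.27 to 0.12). *Ms4a4c* had a ratio of -0.39 ± 0.26, within 2-fold. In the same comparison 11 of the 12 macrophage markers were 2-fold lower and 0 were higher (median -1.92), and 7 of 8 osteoclast markers measured were higher and 0 lower (median 4.27). Of the 4 dendritic cell markers measured 0 were 2-fold apart (median -0.24), and the part of these lists in the values of the *Ms4a* genes was not tested. In bulk RNA, fewer cells of a type and less RNA per cell cannot be told apart.

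Addition of IL-3 to RANKL in fl/fl cells separated the genes. Only *Ms4a6d* of the 5 was 2-fold higher with RANKL and IL-3 than with RANKL, and 0 were lower, where 6.11% of all genes compared were higher, 3.47% lower and 9.58% were apart. It was 4.11-fold higher in FPKM (log2(FPKM + 1) ratio 2.00 ± 0.08), rank 172 from the highest of 10763 genes. *Ms4a6b* had a ratio of 0.65 ± 0.17 and *Ms4a6c* of 0.47 ± 0.10, both within 2-fold. *Ms4a4c* stood at 0.00 ± 0.25, and *Ms4a7* at -0.26 ± 0.16. The log2 FPKM ratio of *Ms4a6d* exceeded that of *Ms4a7* by 2.33 (counting interval 2.13 to 2.52), that of *Ms4a6c* by 1.55 (1.41 to 1.68) and that of *Ms4a6b* by 1.29 (1.08 to 1.51). Of the macrophage markers, 8 of 12 were higher and 0 were lower (median 1.97). Dendritic cell markers were also higher in 3 of 4 measured and lower in 0 (median 1.83), while osteoclast markers were lower in 7 of 8 and higher in 0 (median -2.97). The part of these lists in the *Ms4a* values of this comparison was not tested.

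Shares are given of the FPKM difference between fl/fl M-CSF and fl/fl RANKL that was made up in fl/fl RANKL+IL-3. They were 74.6% for *Ms4a6d*, 17.4% for *Ms4a6b*, 16.4% for *Ms4a6c* and -3.77% for *Ms4a7*. The negative share marks a level below that with RANKL. Less the all-gene median, the log2(FPKM + 1) ratio of *Ms4a7* for IL-3 against RANKL was -0.11, within its counting error of 0.16. Against M-CSF alone, fl/fl RANKL+IL-3 was at least 2-fold lower in 3 of the 5 genes and higher in 0, where 1.42% of all genes compared were lower, 2.5% higher and 3.92% were apart. *Ms4a7* was 7.06-fold lower in FPKM than with M-CSF (log2(FPKM + 1) ratio -2.70 ± 0.13), and only 3 of the 10763 genes had a lower ratio. *Ms4a6b* followed at -1.45 ± 0.13, rank 40 from the lowest, and *Ms4a6c* at -1.28 ± 0.08, rank 67. *Ms4a6d*, at -0.33 ± 0.05, and *Ms4a4c*, at -0.39 ± 0.25, were within 2-fold. Of the macrophage markers 1 of 12 was 2-fold lower in this comparison and 0 were higher (median -0.60), whereas 2 of 4 dendritic cell markers (median 1.26) and 6 of 8 osteoclast markers (median 1.16) were higher and 0 were lower. The comparisons with RANKL and with M-CSF share libraries and do not support each other independently.

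In the cKO library, *Ms4a6d* was lower and *Ms4a7* higher than in fl/fl cells with the same cytokines. No cKO library without IL-3 exists. A genotype difference present without IL-3 and a changed response to IL-3 therefore cannot be told apart. Between cKO RANKL+IL-3 and fl/fl RANKL+IL-3, 1 of the 5 genes was at least 2-fold lower and 1 higher, where 4.28% of all genes compared were lower, 2.11% higher and 6.39% apart. *Ms4a6d* was 2.02-fold lower in the cKO library (log2(FPKM + 1) ratio -1.002 ± 0.06), a value at the threshold. *Ms4a7* was 2.49-fold higher (1.24 ± 0.14). *Ms4a4c* had a ratio of 0.45 ± 0.25, *Ms4a6b* of 0.30 ± 0.15 and *Ms4a6c* of -0.08 ± 0.09. The difference between *Ms4a6d* and *Ms4a7* in log2 FPKM ratio was -2.33 (counting interval -2.50 to -2.17). Of the macrophage markers, 7 of 12 were lower in cKO and 0 were higher (median -1.52), the direction of *Ms4a6d* and not that of *Ms4a7*. Dendritic cell markers were likewise lower in 3 of 4 measured and higher in 0 (median -1.75). The osteoclast markers were 2-fold higher in 5 of 8 measured and lower in 0 (median 2.05), the direction of *Ms4a7* in this comparison. Their median and *Ms4a7* went opposite ways for RANKL against M-CSF (4.27 and -2.44) and for RANKL with IL-3 against M-CSF (1.16 and -2.70). For IL-3 against RANKL both were below 0 (-2.97 and -0.26). How far these lists bear on the *Ms4a* values was not tested.

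**Figure D2:**
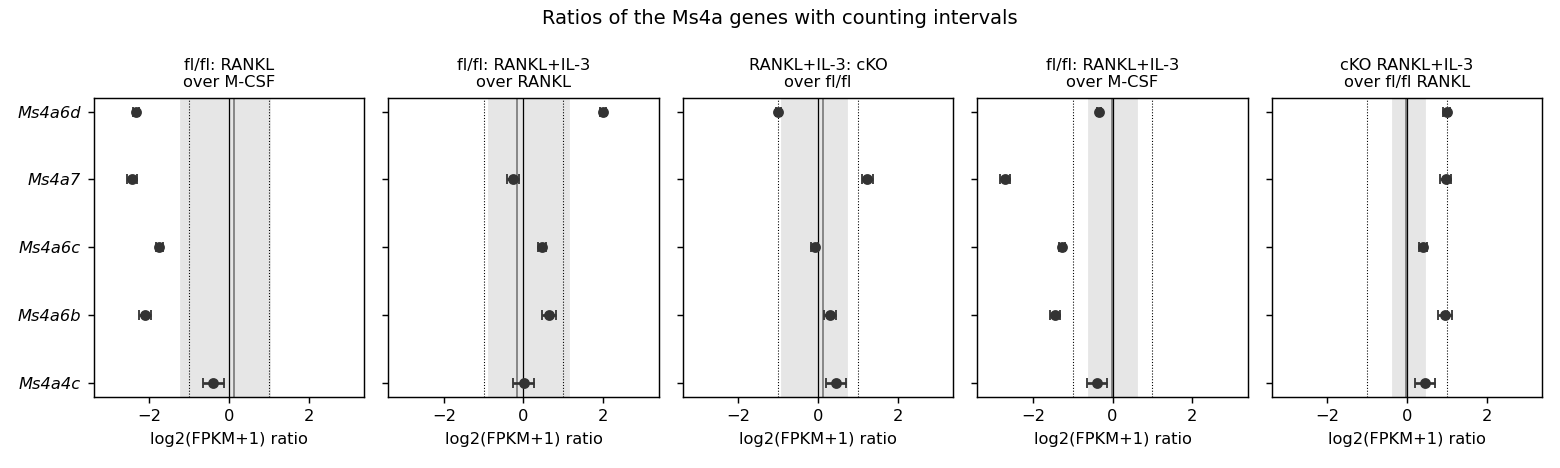
Log2(FPKM + 1) ratios (horizontal) of the 5 genes in 5 comparisons, with approximate 95% counting intervals. Grey bands reach from the 5th to the 95th percentile of 10763 genes, grey lines mark their medians, and dotted lines mark 2-fold. *Ms4a6d* lies at 2.00 and *Ms4a7* at -0.26 for IL-3, and they lie at -1.002 and 1.24 for cKO.

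The library of cKO RANKL+IL-3 was also set against the fl/fl library with RANKL, which differs in both genotype and IL-3. All 5 ratios were above 0, and 0 of the 5 genes were 2-fold apart, where 1.28% of all genes compared were (0.929% higher and 0.353% lower). *Ms4a6d* (0.9993), *Ms4a7* (0.97) and *Ms4a6b* (0.95) were just under the threshold of 1, and these 3 genes were 2-fold higher when a pseudocount of 0.1 FPKM replaced 1 FPKM, a setting at which 2.69% of all genes compared were 2-fold apart. In FPKM they were 2.04-fold, 2.04-fold and 2.11-fold higher. *Ms4a6c* had a ratio of 0.39 ± 0.10 and *Ms4a4c* of 0.45 ± 0.25. For comparison, the macrophage markers were 2-fold higher in 2 of 12 and lower in 0 (median 0.45), dendritic cell markers in 0 of 4 (median -0.02), and osteoclast markers were lower in 3 of 8 and higher in 0 (median -0.87).

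The difference in course between *Ms4a6d* and *Ms4a7* could be read among all genes. *Ms4a6d* was among 230 genes (2.14% of those compared) that were 2-fold lower with RANKL than with M-CSF, regained at least 2-fold when IL-3 was added, and were 2-fold lower in cKO. The steps of this course share the fl/fl RANKL and the fl/fl RANKL+IL-3 library, so a deviating value in either library alone would favour it. *Ms4a6d* only just entered, as its cKO ratio of -1.002 ranked 461 from the lowest, where 461 genes were 2-fold lower. *Ms4a7* was among 5 genes that were 2-fold lower with RANKL than with M-CSF and 2-fold higher in cKO than in fl/fl RANKL+IL-3, whereas 237 genes were lower in both, and these 2 comparisons share no library. *Ms4a6b* and *Ms4a6c* belonged to neither set.

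**Figure D3:**
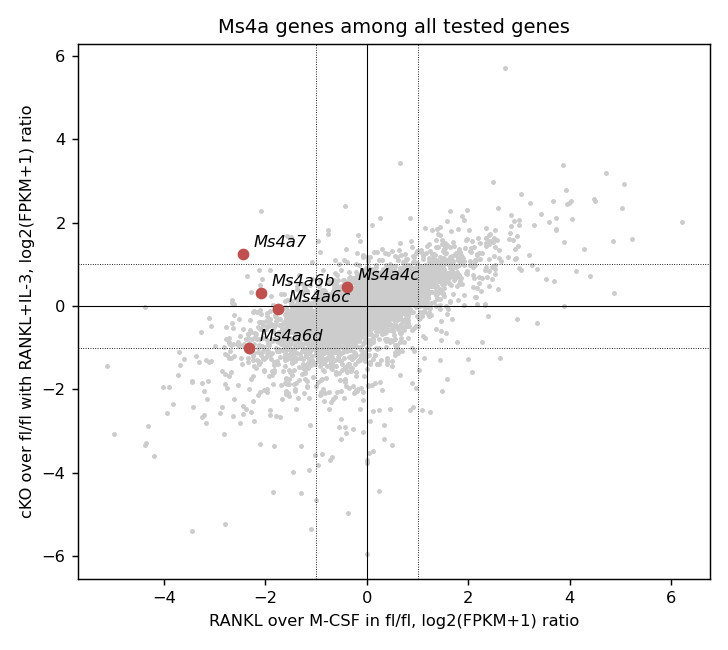
Log2(FPKM + 1) ratios of 10763 genes for RANKL over M-CSF in fl/fl cells (horizontal) and for cKO RANKL+IL-3 over fl/fl RANKL+IL-3 (vertical). Red points are the 5 *Ms4a* genes, grey points all others, and dotted lines mark 2-fold. *Ms4a7* lies at -2.44 and 1.24, left of the vertical 2-fold line and above the horizontal one.

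Together the 5 genes made up 119.7 FPKM in cKO RANKL+IL-3, 160.2 FPKM in fl/fl RANKL+IL-3, 65.5 FPKM in fl/fl RANKL and 308 FPKM in fl/fl M-CSF. *Ms4a6d* contributed 46.7% of this sum in cKO, 70.5% in fl/fl RANKL+IL-3, 41.9% in fl/fl RANKL and 46.1% in fl/fl M-CSF. *Ms4a7* contributed 21.0%, 6.30%, 18.8% and 23.1% in the same libraries. The sum was highest in fl/fl M-CSF, while fl/fl RANKL+IL-3 stood apart in its composition.

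The 3 *Ms4a6* genes are close copies, which bears on how far their levels can be separated. In GENCODE M21 transcripts, the coding sequences of *Ms4a6b* and *Ms4a6c* were identical at 86.4% of aligned bases, those of *Ms4a6b* and *Ms4a6d* at 81.8% and those of *Ms4a6c* and *Ms4a6d* at 79.6%, whereas *Ms4a7* reached 65.3% at most with any of them. The longest run shared without a mismatch was 96 bases between *Ms4a6b* and *Ms4a6c*, 81 between *Ms4a6b* and *Ms4a6d* and 44 between *Ms4a6c* and *Ms4a6d*. Of all 50-base words, 6.11% of *Ms4a6b* were also in *Ms4a6c* and 2.44% were in *Ms4a6d*. Fragments from these stretches could be assigned to another copy, so the levels of all 3 are uncertain to an extent that was not tested. *Ms4a4c* shared 8.00% of its 50-base words with *Ms4a4b*, which stood at 0.18 to 0.41 FPKM. The 12-base longest run between *Ms4a6d* and *Ms4a7* leaves no such overlap for the pair whose courses differed most.

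*Ms4a6b* and *Ms4a6c* also had the most similar profiles among the 5 genes, with a Euclidean distance of 0.41 between log2(FPKM + 1) values centred over the 4 libraries, against 0.94 to 1.99 for the other pairs. The part that shared fragments have in this likeness was not tested. Their promoter windows, from 250 bases before to 50 bases after the annotated start (RefSeq, GRCm38.p6), are shown because they too hold a long stretch in common. No other pair of windows was compared, and none was at hand for *Ms4a6d*. Whether such a stretch is particular to *Ms4a6b* and *Ms4a6c*, or bears on their levels, was not tested. Capitals mark the longest run of 48 bases that their windows share, which begins 118 bases before the start in *Ms4a6b* and 49 bases before it in *Ms4a6c*. The windows lie at chr19:11518309-11518608 and chr19:11469118-11469417, both on the plus strand.
Ms4a6b: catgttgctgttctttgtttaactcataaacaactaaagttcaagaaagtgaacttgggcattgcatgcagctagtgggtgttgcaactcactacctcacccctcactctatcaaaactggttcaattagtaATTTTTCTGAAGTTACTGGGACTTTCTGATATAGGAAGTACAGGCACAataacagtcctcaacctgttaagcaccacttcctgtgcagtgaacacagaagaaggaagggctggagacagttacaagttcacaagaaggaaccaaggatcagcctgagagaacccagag
Ms4a6c: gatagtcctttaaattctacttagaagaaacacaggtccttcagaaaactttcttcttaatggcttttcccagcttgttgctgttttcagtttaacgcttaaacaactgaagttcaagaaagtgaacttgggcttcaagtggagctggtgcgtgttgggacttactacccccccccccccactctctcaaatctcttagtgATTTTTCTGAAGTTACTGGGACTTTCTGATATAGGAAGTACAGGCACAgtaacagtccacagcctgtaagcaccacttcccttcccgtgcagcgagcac

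*Ms4a7* had 3 RefSeq transcripts that separate its start sites and an exon. In the GENCODE M21 models, NM_027836 starts at position 11336144 of chromosome 19 on the minus strand and has 7 exons. NM_001276398 starts 1449 bases further downstream, at 11334695. The downstream start carried almost none of the signal. NM_001276398 stood at 0.14 FPKM in cKO RANKL+IL-3, 0.05 FPKM in fl/fl RANKL+IL-3, under 0.01 FPKM in fl/fl RANKL and 0.06 FPKM in fl/fl M-CSF. NM_027836 stood at 22.3, 8.98, 11.5 and 64.6 FPKM in the same libraries, between 88.5% and 93.7% of the gene. Nearly all of the estimated *Ms4a7* level thus belonged to transcripts from the upstream start.

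The windows around both starts are shown, since the data separate them. Motifs were searched on both strands: TTCNNNGAA (bound by STAT5), GAGGAA (the core of a PU.1 site), TGANTCA (AP-1), GAAANN followed by GAAA (the interferon-stimulated response element), GGAAA (NFAT), which can overlap GAGGAA, and CANNTG (E-box). Capitals mark GAGGAA in the upstream window and TGANTCA in the downstream window, the only matches to the first 4 motifs in either. The windows lie at chr19:11336097-11336396 and chr19:11334646-11334945 on the minus strand (RefSeq, GRCm38.p6).
Ms4a7 upstream start: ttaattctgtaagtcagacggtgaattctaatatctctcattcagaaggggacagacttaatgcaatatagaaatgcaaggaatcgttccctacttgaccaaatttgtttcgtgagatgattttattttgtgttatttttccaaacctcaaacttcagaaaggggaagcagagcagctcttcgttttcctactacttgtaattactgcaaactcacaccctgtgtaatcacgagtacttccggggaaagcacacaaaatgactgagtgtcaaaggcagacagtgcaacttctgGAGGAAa
Ms4a7 downstream start: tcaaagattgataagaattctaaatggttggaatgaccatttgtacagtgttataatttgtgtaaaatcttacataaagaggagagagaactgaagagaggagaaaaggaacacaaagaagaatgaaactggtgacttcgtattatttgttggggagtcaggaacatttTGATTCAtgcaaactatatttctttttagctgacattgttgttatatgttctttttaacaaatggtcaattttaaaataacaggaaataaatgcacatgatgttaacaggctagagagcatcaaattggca

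GAGGAA begins 43 bases after the upstream start, and 28.3% of 32851 mouse promoter windows of the same length hold it. TGANTCA begins 81 bases before the downstream start, and 7.81% of windows hold it. TTCNNNGAA, held by 8.30% of windows, was found in 0 of the 6 windows at hand, which cover *Ms4a4a*, *Ms4a4c*, *Ms4a6b*, *Ms4a6c* and both starts of *Ms4a7*. The interferon-stimulated response element (3.44% of windows) was also found in 0 of them. GGAAA (61.3% of windows) was found in 5 of the 6 and CANNTG (72.3%) in 4, and the *Ms4a6b* window held no match to any motif searched. The table of windows used here holds no entry for *Ms4a6d*. These matches describe letters in a window, not bound sites.

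The third transcript, NM_001025610, lacks the fourth exon of NM_027836, which is 57 bases or 19 codons long and lies within the coding sequence at chr19:11325807-11325863 on the minus strand (GRCm38, from the GENCODE M21 transcript). It is shown in full in capitals, since it is the stretch by which the transcripts differ within the protein.
Ms4a7 exon 4: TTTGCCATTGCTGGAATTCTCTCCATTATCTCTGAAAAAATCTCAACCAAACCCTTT
The transcript without it made up 10.9% of *Ms4a7* in cKO RANKL+IL-3, 10.6% in fl/fl RANKL+IL-3, 6.32% in fl/fl RANKL and 9.33% in fl/fl M-CSF. The transcript with exon 4 was thus the main form in all 4 libraries. *Ms4a6c* was divided between NM_028595 and NM_001166376, and the share of NM_001166376 was 22.7% in cKO, 23.4% in fl/fl RANKL+IL-3, 33.8% in fl/fl RANKL and 27.1% in fl/fl M-CSF. Such shares are estimates of the authors' software from fragments that the transcripts mostly have in common, and no error was available for them.

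**Figure D4:**
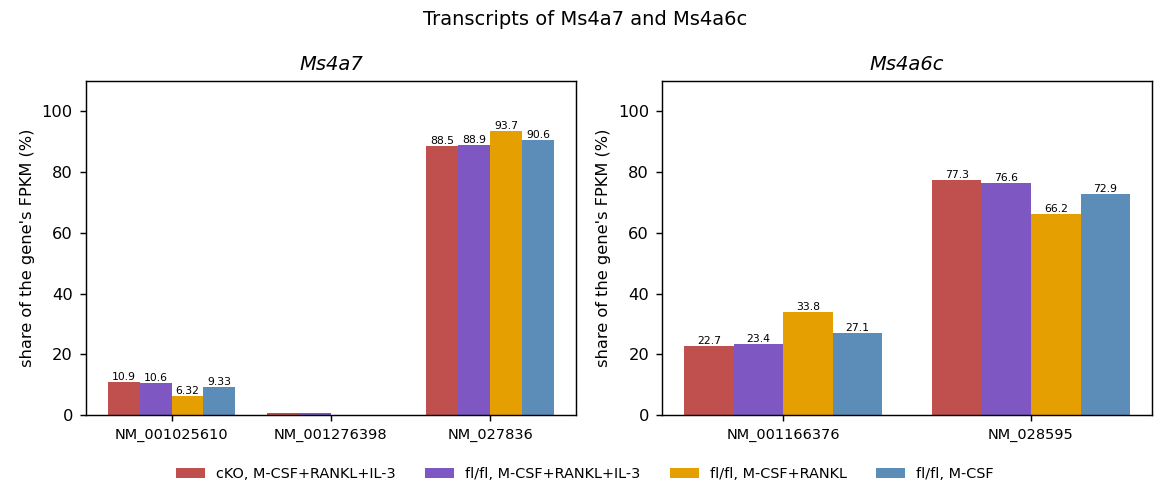
Share of the gene's FPKM (vertical, in percent, from 0) of each RefSeq transcript of *Ms4a7* and *Ms4a6c*, with 1 bar per library. NM_027836 holds 88.5% to 93.7% of *Ms4a7*, and the bars of NM_001276398, from the downstream start, stay below 1% in every library.

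The other *Ms4a* genes of the cluster were at low levels, with 1 exception. Of 21 protein-coding *Ms4a* genes annotated by RefSeq, spread over 679 kb, 18 were measured, including *Ms4a19* and *Ms4a20* under their older symbols. Of the 13 genes besides those described, 7 were at 0 FPKM in all 4 libraries and 5 did not exceed 0.42 FPKM. Among them, *Ms4a1*, the B cell gene, was at 0.04 to 0.31 FPKM, and *Ms4a2*, the mast cell gene, at 0.01 to 0.09 FPKM. *Ms4a3*, the exception, was at 3.03 FPKM in cKO RANKL+IL-3, 7.31 FPKM in fl/fl RANKL+IL-3, 2.26 FPKM in fl/fl RANKL and 3.12 FPKM in fl/fl M-CSF. Its log2(FPKM + 1) ratio was 1.35 for IL-3 against RANKL, and unlike *Ms4a6d* its level in fl/fl RANKL+IL-3 was above that in fl/fl M-CSF. Markers of granulocytes and their progenitors, 7 genes with *Ms4a3* among them, were present in all 4 libraries at a sum of 665 to 1161 FPKM. Most of this sum was *S100a8*, at 275 to 513 FPKM, and *S100a9*, at 291 to 500 FPKM.

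The few genes measured at the edges of the cluster differed little between libraries, as did most genes compared. Of the 5 nearest protein-coding genes listed on each side, 4 reached 1 FPKM, *Tmem109*, *Prpf19*, *Ccdc86* and the mitochondrial ribosomal protein gene *Mrpl16*. In each of the 5 comparisons 0 of these were 2-fold apart, where 1.28% to 12.3% of all genes compared were. With 4 genes, a count of 0 is near those shares and does not set the edges apart. Their log2(FPKM + 1) ratios for RANKL against M-CSF were -0.15 to 0.54. *Mrpl16*, beyond the *Ms4a3* end, stood at 34.2 FPKM in cKO, 30.1 FPKM in fl/fl RANKL+IL-3, 33.9 FPKM in fl/fl RANKL and 28.3 FPKM in fl/fl M-CSF.

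**Figure D5:**
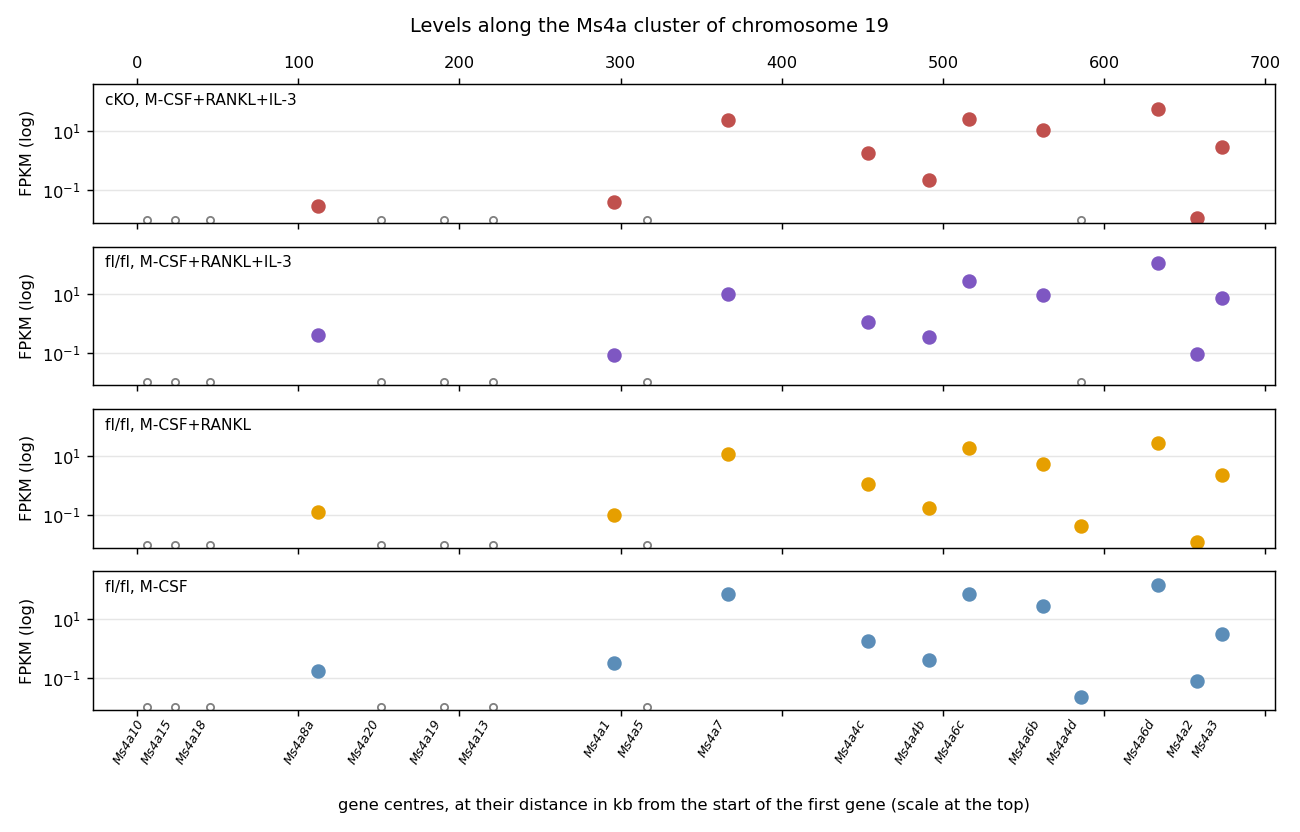
Levels along the *Ms4a* cluster in FPKM (vertical, log axis), with genes at the distance of their centre in kb from the start of the first gene (horizontal, scale at the top) and 1 panel per library. Filled points are measured levels, and open circles at the base are levels under 0.01 FPKM. The genes at 1 FPKM or more lie between *Ms4a7* and *Ms4a3*, with *Ms4a4b*, *Ms4a4d* and *Ms4a2* among them at under 1 FPKM.

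Proteins reported to act with MS4A proteins were followed at the level of their genes. The 5 listed were *Trem2*, *Tyrobp*, *Clec7a*, *Vsig4* and *Syk*. With RANKL against M-CSF, 2 were 2-fold lower and 0 higher (median -0.73), where 6.88% of all genes compared were lower and 5.44% higher. The 2 were *Trem2* and *Vsig4*, and *Vsig4* was near the minimum of 1 FPKM. With IL-3 against RANKL 1 was higher (6.11% of all genes), and 1 was lower in cKO (4.28%). With 5 genes, counts of 1 do not set the partners apart. *Trem2*, a lipid receptor of myeloid cells, stood at 217 FPKM in cKO RANKL+IL-3, 288 FPKM in fl/fl RANKL+IL-3, 164 FPKM in fl/fl RANKL and 499 FPKM in fl/fl M-CSF. It was lowest with RANKL and highest with M-CSF. *Ms4a6d*, *Ms4a6c* and the macrophage markers *Csf1r*, *Adgre1*, *Fcgr1*, *Mertk*, *C1qa*, *C1qc* and *Lyz2* had the same order of the libraries. The other macrophage markers did not. *Cd68* and *C1qb* were lowest in cKO, *Cd14* was highest in cKO, and *Itgam* and *Mrc1* were highest in fl/fl RANKL+IL-3. The log2(FPKM + 1) ratio of *Trem2* for IL-3 against RANKL was 0.81, between those of *Ms4a6c* (0.47) and *Ms4a6d* (2.00). *Clec7a*, which encodes the fungal receptor dectin-1 and in humans is a partner of MS4A4A, stood at 5.15, 78.8, 5.22 and 9.33 FPKM in the same libraries, and was the partner gene past 2-fold in both the IL-3 and the cKO comparison. *Vsig4*, a complement receptor gene, was at 0.44 FPKM in cKO, 0.85 FPKM in fl/fl RANKL+IL-3, 0.37 FPKM in fl/fl RANKL and 2.35 FPKM in fl/fl M-CSF. *Tmem176a* and *Tmem176b*, which are related to the MS4A family, were low, at 0.61 to 1.39 FPKM and 1.81 to 5.09 FPKM.

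The genes outside the group with the closest profiles over the 4 libraries were sought among 6630 genes that reached 10 FPKM, by the same Euclidean distance. For *Ms4a6d* they were *Slc7a8*, an amino acid transporter gene (distance 0.17), *Arl11* (0.18) and *Dhrs3* (0.19). *Slc7a8* stood at 74.4 FPKM in cKO RANKL+IL-3, 145 FPKM in fl/fl RANKL+IL-3, 38.7 FPKM in fl/fl RANKL and 213 FPKM in fl/fl M-CSF. For *Ms4a7* the closest were further away, *Fads2*, a fatty acid desaturase gene (0.52), *Cbr2* (0.58) and the integrin gene *Itga6* (0.69). For *Ms4a6c* they were *Mgat5* (0.06), *Ssh2* (0.12) and *Mef2c* (0.18), and for *Ms4a6b* *Hmga2-ps1* (0.28), the folate receptor gene *Folr2* (0.29) and *Fam134b* (0.32). For *Ms4a4c*, *Klra2* was closest (0.08), followed by *4930579G24Rik* and *Ube2e3*. The *Ms4a4c* profile is flattened by the pseudocount of 1 FPKM, which is near its levels. In plain FPKM its highest library was 1.69-fold above its lowest. Over 4 libraries many genes share a course, so these distances only describe likeness.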

How the data were processed

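BMMs were sequenced in 4 libraries, 1 per condition. The deposited values, 1 per RefSeq transcript, were read as FPKM, a unit that the table does not name and that was inferred from the tools. The submitters' processing notes name TopHat2 2.0.13, Cufflinks 2.2.1 and the mm10 build. Their options, strand setting and read length were not stated. Transcripts (33170) were summed per gene ID, small RNA genes were removed by symbol, and the 10763 genes that reached 1 FPKM were compared as log2(FPKM + 1), at a threshold of 2-fold. With 1 library per condition no test was run. Depth was estimated from steps in the low FPKM values of genes with 1 long transcript (3000 nt or more), of which 72.1% to 74.3% lay within 0.2 steps of a whole fragment, where even spacing gives 40%. Counting intervals rest on this depth, on transcript lengths of GENCODE M21 (for NM_001166376, that of NM_028595) and on full rather than effective lengths, and are approximate. The members and lists were chosen with earlier results of these data known. The genes named are the members, other *Ms4a* genes, listed partners and relatives, the 5 nearest genes on each side, the 3 closest profiles per member, and *Stat5a* and *Stat5b*. Alternatives were 0.1 FPKM as pseudocount, median ratio or upper quartile scaling, no minimum or one of 5 FPKM, thresholds of 1.5-fold and 4-fold, and the most abundant transcript per gene. Promoter windows came from RefSeq (GRCm38.p6), which held 6 windows for 5 of the 6 genes. The ratio step was run on simulated counts with planted changes of 4-fold or more and counting noise only. That run does not cover values near 2-fold or variation between cultures. Python 3.11.15, numpy 2.4.6, pandas 2.3.3 and matplotlib 3.10.9 were used.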

Additional observations from a re-analysis of the deposited data

How the results depend on the processing

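Most counts of the 5 *Ms4a* genes at least 2-fold apart stayed within 1.5 times of those reported under the 8 alternatives. The exceptions for IL-3 against RANKL were 2 genes instead of 1 at 1.5-fold (24.8% of all genes compared passed), for cKO against fl/fl 0 instead of 2 at 4-fold (1.32%), and for RANKL with IL-3 against M-CSF 1 instead of 3 at 4-fold (0.966%), as a changed threshold admits more or fewer genes. For cKO with RANKL and IL-3 against fl/fl with RANKL, 0 genes became 3 with a pseudocount of 0.1 FPKM (2.69% of all genes), 2 with median ratio scaling (1.37%) and 3 at 1.5-fold (4.90%), since 3 genes lay just under the threshold. Single ratios were recomputed with another pseudocount, scaling or transcript choice, 25 per setting. Of these 100 values, 84 moved by less than their counting interval, 16 moved by more and 0 changed sign. Part of this was fixed in advance. The transcript choice could not move ratios of *Ms4a4c*, *Ms4a6b* and *Ms4a6d*, which have 1 transcript each. Likewise, leaving out the minimum could not change a count of the 5 genes, which all reached 1 FPKM. Median ratio scaling turned the all-gene split for RANKL against M-CSF to 440 higher and 935 lower, against 585 and 740 without it, that for IL-3 against RANKL to 814 and 274, against 658 and 373, and that for cKO against fl/fl to 185 and 551, against 227 and 461. No paired analysis was possible because each condition has 1 library. The lack of replicates limits every value, and *Ms4a4c*, with the fewest fragments, is the least precise.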

Other observations

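The 5 genes that were at least 2-fold lower with RANKL than with M-CSF in fl/fl cells and at least 2-fold higher in cKO RANKL+IL-3 than in fl/fl RANKL+IL-3 were picked out after their values were seen. Besides *Ms4a7* they were the chemokine receptor gene *Cx3cr1*, the integrin gene *Itga6*, the phospholipase gene *Pla2g5* and the predicted gene *Gm4070*. *Cx3cr1*, a gene of monocytes and resident macrophages, stood at 19.7 FPKM in cKO RANKL+IL-3, 3.26 FPKM in fl/fl RANKL+IL-3, 15.1 FPKM in fl/fl RANKL and 68.0 FPKM in fl/fl M-CSF. *Itga6* stood at 23.6, 6.63, 13.2 and 41.1 FPKM in the same libraries. *Gm4070* stood at 6.22, 1.28, 2.30 and 8.27 FPKM. In *Cx3cr1*, *Itga6* and *Gm4070*, as in *Ms4a7*, fl/fl RANKL+IL-3 had the lowest level of the 4 libraries. For *Ms4a7* the difference from fl/fl RANKL was within its counting error once the all-gene median was taken off. The selection itself allows only this library or fl/fl RANKL to be the lowest, so this likeness is partly fixed by it. *Pla2g5* differed, as its lowest level was 2.86 FPKM with RANKL, and its level in cKO, 10.6 FPKM, was above the 7.16 FPKM in fl/fl M-CSF. *Cx3cr1* (-4.02) was also the gene with the lowest log2(FPKM + 1) ratio of all for RANKL with IL-3 against M-CSF in fl/fl cells, followed by *Ctla2b*, *Hpgd* and *Ms4a7*. That ranking draws on values that also entered the selection. The 4 genes besides *Ms4a7* lie on other chromosomes, 9, 2, 4 and 7.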
